A study of Mus musculus with 25 samples.

Results

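Interferon-stimulated genes are the genes that a cell switches on after an interferon binds its receptor. The 8 followed here were Ifit1, Ifit2, Ifit3, Isg15, Irf7, Rtp4, Bst2 and Xaf1, chosen by symbol, and they were taken from 35922 gene symbols measured in the hearts of 25 mice, where the labels give the tissue as left ventricular. All 8 were expressed highly enough to be tested among 11975 genes. In the canonical pathway, type I interferon binds a paired receptor, the kinases Jak1 and Tyk2 become active, and a complex that contains Irf9 forms and binds a promoter element, the interferon-stimulated response element (ISRE). In heart muscle most cell types carry the receptor, and a low level of these transcripts is found without infection.

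The mice were male littermates, 8 to 10 weeks old at the start, wild type (WT) or heterozygous for a disrupted allele of the glutathione peroxidase 4 gene (GPx4+/-), on a C57BL6/J background. Each of 5 groups had 5 mice. WT CNTL and GPx4+/- CNTL mice ate standard chow, and WT HFHS and GPx4+/- HFHS mice ate a high fat high sucrose diet for 16 weeks. WT HFHS + Carnosine mice had the HFHS diet with 80 mM carnosine, a histidine-containing dipeptide, in the drinking water from week 7. Carnosine-treated GPx4+/- mice were not analysed here. All mice were fasted and received dextrose or saline before tissue collection, and which mouse received which is not given in the labels.

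Levels are given as scaled TPM (transcripts per 1000000, corrected for transcript length, summed per gene and divided by a scaling factor per library). Between 11644 and 12296 genes reached 1 TPM in a library, mitochondrial transcripts took between 31.3% and 48.7% of it, and scaling factors were between 0.864 and 1.16. Every GPx4+/- library had less Gpx4 than every WT library (at most 382.8 against at least 590.6 scaled TPM). Cardiomyocyte markers summed to between 34967.5 and 43020.5 scaled TPM, so the muscle cells of the labelled tissue were present in every library. Atrial markers were also high in some mice, although the labels give ventricle. They summed to 4665.3 scaled TPM in WT CNTL replicate 3, 7329.4 in GPx4+/- CNTL replicate 1, 1514.9 in GPx4+/- CNTL replicate 2, 2746.7 in GPx4+/- HFHS replicate 4 and 611.2 in WT HFHS + Carnosine replicate 2, and to between 44.4 and 292.6 in the other 20 mice. By the gap to the next mouse of the group, atrial markers set apart 4 of these 5 (not GPx4+/- CNTL replicate 2), and hepatocyte markers 2 more (GPx4+/- CNTL replicate 2, summing to 1128.7 scaled TPM, and WT HFHS replicate 4, 16.6). The hepatocyte sum was also high in several GPx4+/- HFHS mice together, with 90.0 in replicate 1, 59.1 in replicate 3 and 22.3 in replicate 4, and was 17.1 in GPx4+/- CNTL replicate 1. Member counts are also given without the 6 mice set apart by the gap and, as a separate alternative, without the 6 mice with a hepatocyte sum of at least 16.

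The members have different tasks. Ifit1, Ifit2 and Ifit3 bind foreign RNA or each other and hold back its translation, Isg15 is a ubiquitin-like protein that is attached to other proteins, and Irf7 is the transcription factor that amplifies interferon production. Bst2 (tetherin) holds budding virus at the cell surface, Rtp4 is a receptor-transporting protein with antiviral activity, and Xaf1 binds the apoptosis inhibitor XIAP. On GRCm38, Ifit2 (19:34550694-34576419), Ifit3 (19:34583531-34588731) and Ifit1 (19:34640871-34650009) lie on the plus strand of 1 cluster of chromosome 19. Isg15 lies at 4:156199424-156200818 (minus), Irf7 at 7:141262706-141266481 (minus), Rtp4 at 16:23520291-23614222 (plus), Bst2 at 8:71534255-71537456 (minus) and Xaf1 at 11:72301629-72313733 (plus). All are protein coding. Ifit1, Ifit3 and Isg15 had 1 transcript each in the data, whereas Irf7 had 13, of which the most abundant gave 43.1% of the level, and Xaf1 had 5, of which the most abundant gave 44.7% and one annotated as a target of nonsense-mediated decay gave 29.7%.

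RefSeq promoter sequence (GRCm38.p6) was at hand for 7 of the 8 members, and Rtp4 had no entry. In the 250 bases before the start site, both strands were searched for the core of the ISRE, written GAAANNGAAA or, on the other strand, TTTCNNTTTC. Isg15, Bst2, Ifit1 and Ifit3 held at least 2 matches each, and Ifit2, Irf7 and Xaf1 had no match to these letters in this window. Of all 32851 promoter windows of the same length, 2.98% held a match and 0.18% held 2 or more. The palindrome TTCNNNGAA (GAS), an element of interferon-gamma-regulated promoters, was found once in the Bst2 window and once in an Ifit2 window, against 7.02% of all windows. The windows of these 4 members follow with that of Ifit1bl2, a neighbour of Ifit1, because it shares promoter sequence with Ifit1; capitals mark the ISRE core.
Isg15, chr4:156200819-156201068, minus strand: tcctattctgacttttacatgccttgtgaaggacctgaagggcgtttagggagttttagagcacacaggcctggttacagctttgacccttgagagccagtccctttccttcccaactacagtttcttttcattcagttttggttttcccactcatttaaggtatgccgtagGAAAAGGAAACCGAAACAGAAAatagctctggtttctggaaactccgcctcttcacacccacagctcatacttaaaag
Bst2, chr8:71537473-71537722, minus strand: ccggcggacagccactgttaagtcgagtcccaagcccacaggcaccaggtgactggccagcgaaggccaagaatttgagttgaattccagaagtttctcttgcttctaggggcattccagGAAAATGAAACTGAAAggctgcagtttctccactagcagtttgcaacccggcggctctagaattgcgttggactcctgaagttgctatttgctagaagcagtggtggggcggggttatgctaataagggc
Ifit3, chr19:34583279-34583528, plus strand: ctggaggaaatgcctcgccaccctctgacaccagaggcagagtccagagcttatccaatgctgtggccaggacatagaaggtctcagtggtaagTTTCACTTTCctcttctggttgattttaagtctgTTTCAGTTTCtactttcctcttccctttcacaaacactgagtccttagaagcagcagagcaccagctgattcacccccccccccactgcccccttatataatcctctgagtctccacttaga
Ifit1, chr19:34640639-34640888, plus strand: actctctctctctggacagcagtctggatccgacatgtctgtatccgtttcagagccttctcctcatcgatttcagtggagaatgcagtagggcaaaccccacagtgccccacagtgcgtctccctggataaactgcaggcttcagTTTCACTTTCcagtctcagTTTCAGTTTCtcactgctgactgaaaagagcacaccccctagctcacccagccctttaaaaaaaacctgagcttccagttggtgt
Ifit1bl2, chr19:34640744-34640993, minus strand: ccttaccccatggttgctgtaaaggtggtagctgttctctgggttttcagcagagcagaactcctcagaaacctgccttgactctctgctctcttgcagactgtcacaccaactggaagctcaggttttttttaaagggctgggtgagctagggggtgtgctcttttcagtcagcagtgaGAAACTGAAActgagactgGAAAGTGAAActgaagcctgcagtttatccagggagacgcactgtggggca
In Isg15 the 3 matches overlap and form 1 run from 78 to 57 bases before the start. Ifit1 and Ifit1bl2 are transcribed away from each other from starts 146 bases apart, so their windows share 145 bases (19:34640744-34640888), and the 2 matches of Ifit1 are the same genomic letters as the 2 of Ifit1bl2.

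Bst2 had the highest level of the members and Ifit1 the lowest. Over the 25 mice the mean scaled TPM was 25.8 for Bst2, 10.8 for Xaf1, 9.77 for Irf7, 8.66 for Ifit3, 6.00 for Isg15, 5.20 for Ifit2, 5.13 for Rtp4 and 2.58 for Ifit1. Bst2 was above Xaf1 in 25 of 25 mice, and Rtp4 was above Ifit1 in 25 of 25. Between the other neighbours of this order the ranges of 1 SD overlapped. Ifit3 was above Isg15 in 24 of 25 mice, Irf7 above Ifit3 in 20, Isg15 above Ifit2 in 19, Xaf1 above Irf7 in 17 and Ifit2 above Rtp4 in 12. These levels put Bst2 above 76.6% of the genes tested and Ifit1 above 16.6%. From the lowest to the highest mouse a member spanned between 1.81-fold (Xaf1) and 2.72-fold (Isg15 and Ifit3).

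**Figure D1:**
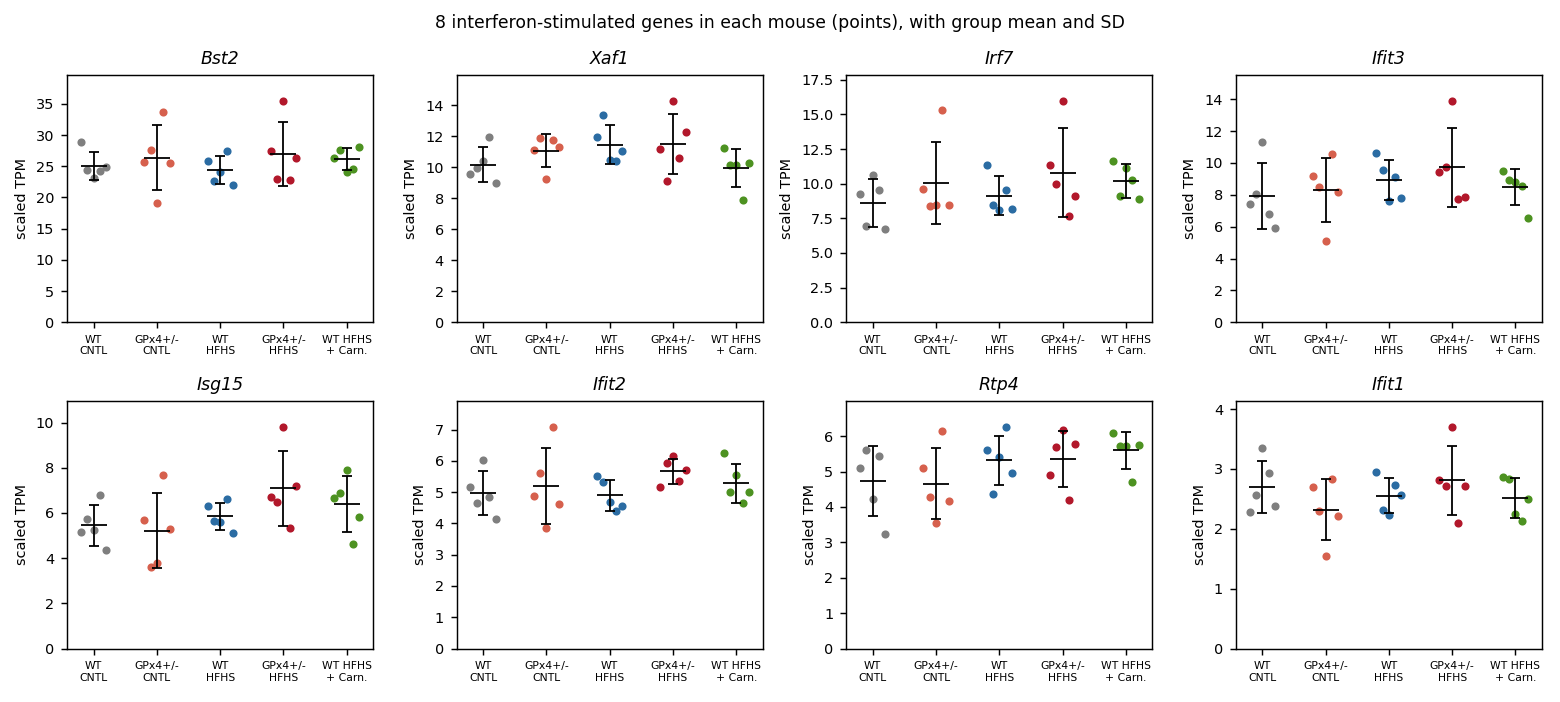
Scaled TPM (vertical axis, from 0) of the 8 members in each of 25 mice, by group; points are mice, the short bar is the group mean and the whiskers are the SD (n = 5). In every panel the mice of the 5 groups overlap.

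No member passed the test for the HFHS diet, in either genotype or over both. Isg15 came nearest, in GPx4+/- mice. Its scaled TPM was 5.69, 3.59, 3.80, 7.69 and 5.30 in the 5 GPx4+/- CNTL mice and 6.71, 6.47, 9.79, 5.32 and 7.18 in the 5 GPx4+/- HFHS mice. The diets overlapped, since GPx4+/- CNTL replicate 4 was above 4 of the 5 HFHS mice. The group means were 5.21 ± 1.66 (SD, n = 5) and 7.09 ± 1.66 (SD, n = 5), a log2 fold change of 0.43 (95% interval 0.08 to 0.78, adjusted p = 0.167 from limma over all genes tested). In WT mice Isg15 was 5.16, 5.75, 5.23, 6.79 and 4.36 on CNTL and 6.31, 5.64, 5.61, 6.61 and 5.12 on HFHS. These WT values overlapped almost throughout, with means of 5.46 ± 0.897 and 5.86 ± 0.597 (SD, n = 5 each). The difference of the diet effect between genotypes was 0.33 on the log2 scale for Isg15 (95% interval -0.17 to 0.82, adjusted p = 0.766 from limma) and 0.21 without GPx4+/- HFHS replicate 3.

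In WT, 0 of 8 members were called by limma at an adjusted p under 0.05, and 1.19% of all genes tested were. In GPx4+/- 0 of 8 were called against 3.34% of all genes, and over both genotypes 0 of 8 against 8.33%. At an unadjusted p under 0.05 the members numbered 0 in WT (all genes 16.5%), 1 in GPx4+/- (18.4%) and 1 over both genotypes (24.5%), Isg15 each time. By the exact permutation test over mice, 0 of 8 had p under 0.05 in WT and 0 of 8 in GPx4+/-. For no member did the HFHS and CNTL mice separate without overlap, a separation shown by 4.52% of all genes in WT and 4.48% in GPx4+/-. Members were higher on HFHS in 5 of 8 cases in WT (median log2 fold change 0.10), in 8 of 8 in GPx4+/- (0.16) and in 7 of 8 over both genotypes (0.10), while the median over all genes tested was between -0.0023 and 0.00040. With TPM as deposited 5 of 8 were higher in GPx4+/- (median 0.07), where that scale moved the median of all genes to -0.10. The medians also turned on single mice. In GPx4+/- the median was 0.06 (6 of 8 higher) without CNTL replicate 3, 0.10 (5 of 8) without HFHS replicate 3 and 0.27 without CNTL replicate 4, in WT it was 0.02 without CNTL replicate 5 and 0.04 without HFHS replicate 1, and over both genotypes it was 0.06 without GPx4+/- HFHS replicate 3 and 0.17 without the 6 mice set apart by the gap. The 95% intervals of the members reached from -0.35 to 0.57 in WT and from -0.28 to 0.78 in GPx4+/-, so a change of a member beyond 1.72-fold in either direction lay outside them.

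**Figure D2:**
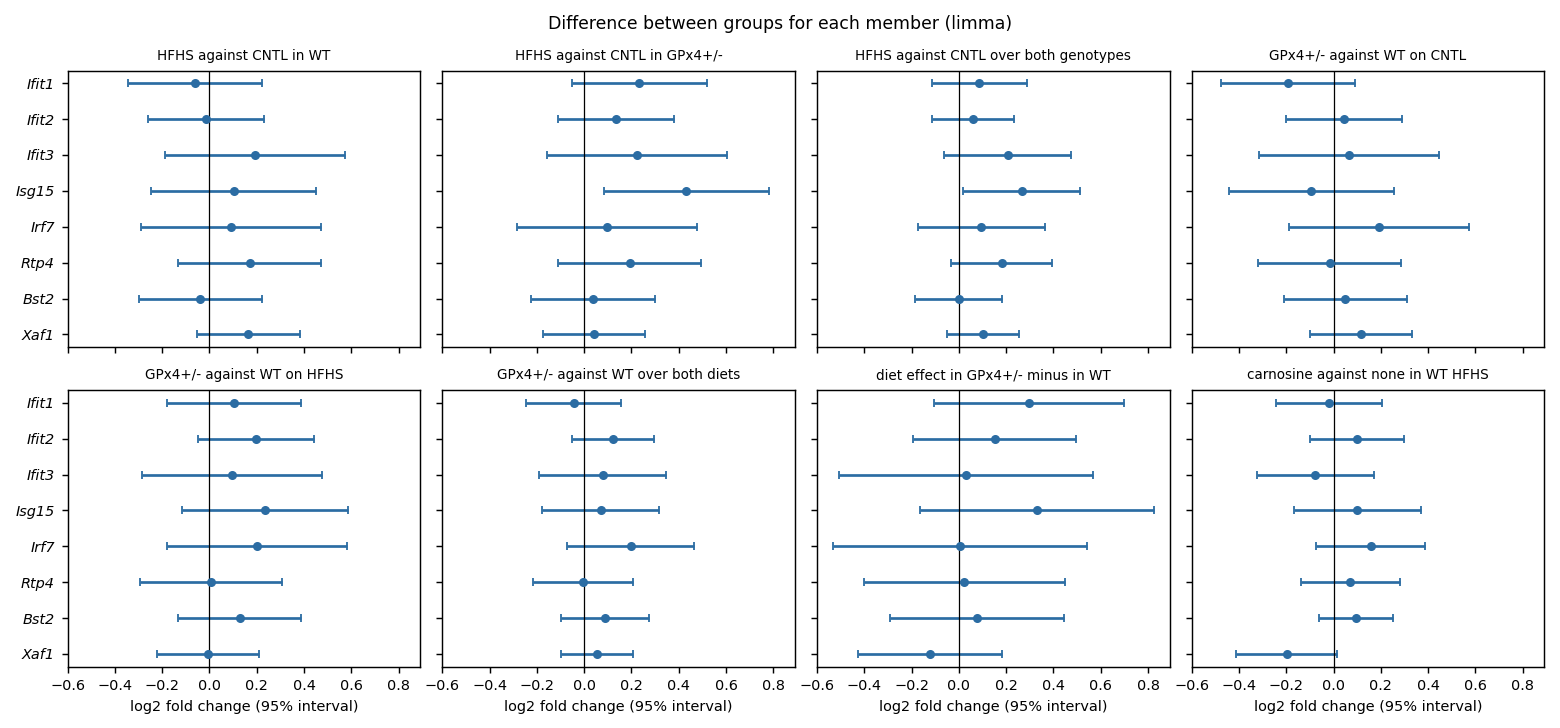
log2 fold change (horizontal axis) of each member (vertical axis) in 8 comparisons, from limma; points are estimates and bars are 95% intervals. The interval of Isg15 lies above 0 for HFHS in GPx4+/- and over both genotypes, before adjustment for the number of genes, and all other intervals include 0.

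The other Ifit members did not pass the test for diet. Ifit3 had the highest change in WT, with 7.42, 8.05, 11.3, 6.78 and 5.91 scaled TPM on CNTL and 10.6, 9.57, 7.63, 9.09 and 7.81 on HFHS. WT CNTL replicate 3 was above all HFHS mice, and the log2 fold change was 0.19 (95% interval -0.19 to 0.57, adjusted p = 0.641 from limma). Single mice moved it, to 0.32 without WT CNTL replicate 3 and 0.10 without WT CNTL replicate 5. Ifit1 was 2.28, 2.56, 3.35, 2.93 and 2.38 in WT CNTL and 2.94, 2.31, 2.23, 2.73 and 2.56 in WT HFHS, a log2 fold change of -0.06 (95% interval -0.35 to 0.22, adjusted p = 0.862). In GPx4+/- the changes were 0.23 for Ifit1 (95% interval -0.05 to 0.52, adjusted p = 0.384) and 0.22 for Ifit3 (95% interval -0.16 to 0.60, adjusted p = 0.569). Without GPx4+/- CNTL replicate 3 they were 0.12 and 0.068, without GPx4+/- HFHS replicate 3 0.14 and 0.091, with TPM as deposited 0.14 and 0.12, and without the 6 mice set apart by the gap 0.39 and 0.37. Ifit2 means stayed between 4.89 and 5.67 over the 5 groups. Of the remaining members, Bst2 had the smallest change over both genotypes, at -0.00040 (95% interval -0.19 to 0.18, adjusted p = 0.998 from limma), and the group means of Bst2 lay between 24.4 and 27.0 scaled TPM.

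Between genotypes the members also overlapped. On CNTL 0 of 8 were called by limma (0.0501% of all genes), on HFHS 0 of 8 (0.0501%) and over both diets 0 of 8 (0.0585%), and 0 of 8 had an unadjusted p under 0.05 in each (all genes 6.28%, 4.57% and 3.92%). On CNTL and on HFHS the genotypes separated without overlap for 0 of 8 members, against 0.927% and 0.727% of all genes. On CNTL, Irf7 had the highest log2 fold change, 0.19 (95% interval -0.19 to 0.57, adjusted p = 0.904), and Ifit1 the lowest, -0.19 (95% interval -0.48 to 0.09, adjusted p = 0.848). Irf7 was 9.26, 6.96, 10.6, 9.53 and 6.70 in WT CNTL mice and 9.65, 8.40, 8.44, 15.3 and 8.45 in GPx4+/- CNTL mice, where replicate 4 alone stood above the WT range. Without that mouse the Irf7 value was 0.038, and it was 0.13 without WT CNTL replicate 2 and 0.11 without WT CNTL replicate 5. The Ifit1 value was -0.12 without WT CNTL replicate 3 and -0.082 without GPx4+/- CNTL replicate 3. On HFHS, Isg15 had the highest log2 fold change, 0.24 (95% interval -0.11 to 0.58, adjusted p = 0.978), which was 0.12 without GPx4+/- HFHS replicate 3, and Xaf1 the lowest, -0.0056. By the exact permutation test Ifit2 had p = 0.0397 between genotypes on HFHS (two-sided and unadjusted, the only 1 of 40 such tests under 0.05, where 5 mice against 5 can reach 0.00794). By limma its log2 fold change was 0.20 (95% interval -0.05 to 0.44, adjusted p = 0.978). Its values were 5.50, 5.34, 4.67, 4.40 and 4.56 in WT HFHS and 5.18, 5.94, 6.14, 5.36 and 5.72 in GPx4+/- HFHS. The groups overlapped, since the 2 highest WT mice stood above the lowest GPx4+/- mouse, and no such test had p under 0.05 once any 1 of 6 mice was left out (WT HFHS replicate 3, 4 or 5, or GPx4+/- HFHS replicate 2, 3 or 5). The diet effect differed between genotypes for 0 of 8 members by limma, as for 0% of all genes, with 0 members and 7.16% of genes at an unadjusted p under 0.05. The median of that difference over the members was 0.05 with scaling (all genes -0.0046), -0.05 with TPM as deposited, -0.04 without GPx4+/- CNTL replicate 3, -0.03 without GPx4+/- HFHS replicate 3, 0.17 without GPx4+/- CNTL replicate 4, 0.13 without WT CNTL replicate 5, 0.12 without GPx4+/- HFHS replicate 4 and 0.15 without the 6 mice set apart by the gap. TPM as deposited lack the factor per library, which shifts all genes of a library nearly alike. The change of sign on that scale is thus not particular to the members.

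With carnosine in WT HFHS mice, 0 of 8 members were called by limma, as were 0% of all genes, and 0 of 8 had an unadjusted p under 0.05 (all genes 4.21%). The mice separated without overlap for 0 of 8, against 0.61% of all genes. By the exact permutation test 0 of 8 had p under 0.05, and the smallest was that of Xaf1 (p = 0.0714). Xaf1 was 12.0, 13.4, 10.5, 10.4 and 11.1 scaled TPM without and 11.3, 10.1, 10.1, 7.88 and 10.3 with carnosine. WT HFHS + Carnosine replicate 1 was above 3 of the 5 mice without it, and the log2 fold change was -0.20 (95% interval -0.41 to 0.02, adjusted p = 0.946 from limma) and -0.12 without WT HFHS + Carnosine replicate 4. Irf7 had the highest value, 0.16 (95% interval -0.08 to 0.39, adjusted p = 0.946). Members were higher in 5 of 8 cases, with a median of 0.08 (all genes -0.0012), which was 0.01 with TPM as deposited and 0.04 without any 1 of WT HFHS replicate 2 and WT HFHS + Carnosine replicates 1 and 3. The scale of TPM as deposited shifts all genes of a library nearly alike, so the fall to 0.01 is not particular to the members. The bounds over all 8 members, from -0.41 to 0.39, leave out a fold below 0.751 or above 1.31. Without the 6 mice set apart by the gap, and likewise without the 6 mice with a hepatocyte sum of at least 16, alternatives chosen after seeing the data, 0 of 8 members were called in each of the 8 comparisons.

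The members moved together from mouse to mouse within groups. Each member's log2 level was taken as a distance from its group mean, and the 28 pairs of members were then correlated over the 25 mice. All 28 correlations were positive, with a median Pearson's r of 0.602 (range 0.391 to 0.790) and a median Spearman's rho of 0.522. Over all pairs of genes tested the median was -0.0016, and 7.37% of them were above the lowest member pair. Without the 2 mice farthest from the median, GPx4+/- CNTL replicate 4 and GPx4+/- HFHS replicate 3, the members' median fell to 0.449 (range 0.180 to 0.743), with 28 of 28 still positive. Members measured in the same library share its depth and composition, so these values describe the mice and carry no test.

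GPx4+/- HFHS replicate 3 had the highest value of its group for 8 of 8 members, on average 0.37 above the group on the log2 scale. Its hepatocyte sum of 59.1 was the third highest of the 25 mice, and its part in this was not tested. Its Irf7 was 16.0 scaled TPM against at most 11.3 in the other 4 mice, its Ifit3 was 13.9 against at most 9.72, and its Bst2 was 35.4 against at most 27.5. GPx4+/- CNTL replicate 4 had the highest value for 7 of 8, on average 0.39 above its group. At the other end GPx4+/- CNTL replicate 3 was lowest for 6 of 8 (-0.37), GPx4+/- HFHS replicate 4 for 6 of 8 (-0.26) and WT CNTL replicate 5 for 6 of 8 (-0.25). Both GPx4+/- groups thus held both a high and a low mouse. Among genes with a mean level within 1.3-fold, the within-group SD was above that of 93.4% for Irf7, 92.7% for Ifit3, 89.2% for Isg15, 85.9% for Bst2 and 52.3% for Ifit1.

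**Figure D3:**
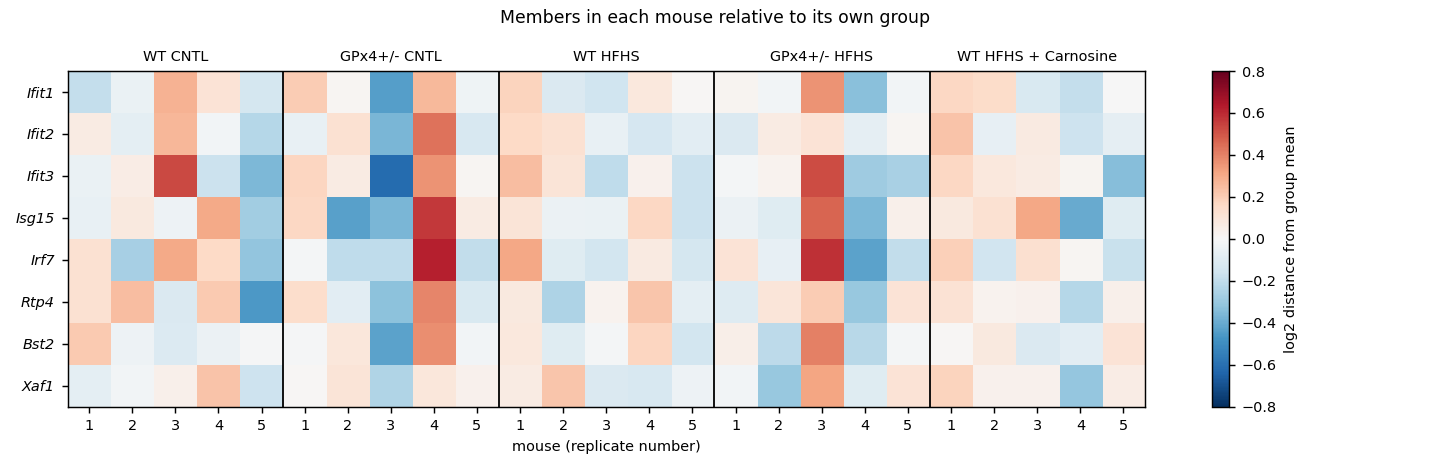
Distance of each member (rows) from its group mean on the log2 scale (colour, red above and blue below) in each of the 25 mice (columns, by group and replicate). The columns of GPx4+/- CNTL replicate 4 and GPx4+/- HFHS replicate 3 are red for all 8 members, and that of GPx4+/- CNTL replicate 3 is blue for all 8.

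Markers of other cell types were set beside this pattern, as within-group deviations of their summed levels. The endothelial list (5 genes) had the highest correlation with the members' mean, r = 0.451, followed by plasmacytoid dendritic cell genes other than Bst2 and Irf7 (3 genes, of which 1 passed the filter on low values, 0.424) and B cell genes (5 genes, of which 1 passed, 0.359). Macrophage genes (7 genes) had 0.226, and the other 10 lists had between -0.095 and 0.200. The order changed without the 2 farthest mice, to 0.428 for macrophage, 0.418 for endothelial, 0.407 for plasmacytoid dendritic cell and 0.379 for B cell genes. The endothelial sum ranged from 206.7 to 302.8 scaled TPM over the 25 mice and the macrophage sum from 73.9 to 149.5. T cell genes summed to at most 1.96 and NK cell genes to at most 1.33. The part of these cells in the members' levels was not tested, and in whole tissue fewer cells of a type and less RNA per cell cannot be told apart. The mitochondrial share of a library had r = -0.230 with the members and its scaling factor 0.195.

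Genes outside the 8 were ranked by how closely they followed the members from mouse to mouse. Of 11967 other genes, the 10 with the highest correlation to the members' mean deviation were Irgm1 (r = 0.772), Irf9 (0.767), Oasl2 (0.753), Oasl1 (0.740), Lgals3bp (0.727), Rnf213 (0.724), Ddit3 (0.721), Krtcap2 (0.707), Parp14 (0.700) and Usp18 (0.698). Irf9 is the DNA-binding part of the complex at the ISRE, Usp18 removes Isg15 from proteins and dampens the receptor, and Oasl1 and Oasl2 belong to the oligoadenylate synthetase family. Of the 10, 8 were on the lists of interferon-pathway genes used here, and Ddit3, a stress-response transcription factor, and Krtcap2, an oligosaccharyltransferase subunit, were not. Without 1 group of mice at a time, between 4 and 8 of these 10 stayed among the 10 highest. An r over 0.5 was found for 103 of the 11967 genes, among them 28 of 81 genes on the lists of other interferon-stimulated and interferon-gamma-led genes, which had a median r of 0.379 against 0.0070 over all genes. All of these values come from the same 25 libraries and carry no test.

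**Figure D4:**
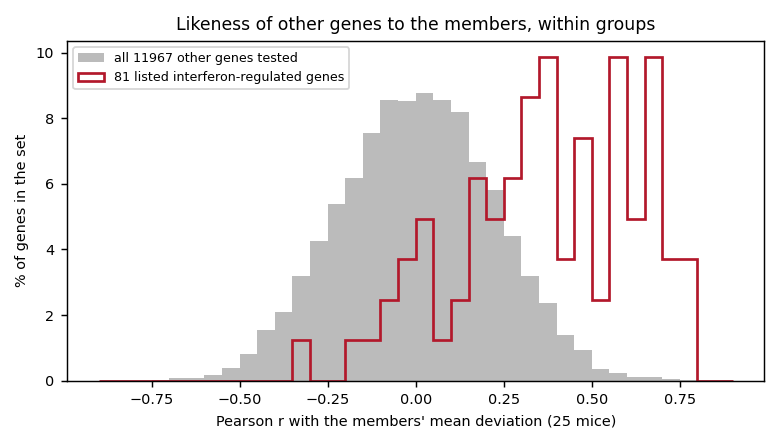
Share of genes (vertical axis, % of each set) by Pearson's r with the members' mean within-group deviation over 25 mice (horizontal axis), for all 11967 other genes tested (grey) and for 81 listed interferon-regulated genes (red line). The red line is shifted to the right, with a median of 0.379 against 0.0070.

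Transcripts of the interferons themselves were at the edge of detection. Of 21 ligand genes, 15 were listed at 0 in all 25 mice and all 21 were under the filter on low values. Ifng had the highest value of any, 0.148 scaled TPM in 1 mouse. The receptor chains were present in all 25 mice, with a mean of 7.34 scaled TPM for Ifnar1, 18.2 for Ifnar2, 30.6 for Ifngr1 and 72.3 for Ifngr2, as was Irf9 (6.82), which stands on 2 of the lists. The receptor and signal carrier list (13 genes, all tested) had 1 gene called lower on HFHS in GPx4+/- (all genes 1.16%), Tyk2, which was 6.55, 5.59, 5.67, 6.04 and 6.19 on CNTL and 5.10, 4.51, 5.06, 5.49 and 4.73 on HFHS. The groups did not overlap, as in 4.48% of all genes (log2 fold change -0.25, adjusted p = 0.0270 from limma), while in WT the change was 0.03 (adjusted p = 0.845). The difference between genotypes had an adjusted p of 0.654. The call in GPx4+/- was lost with quantile normalization, with only these groups in the fit, without the 6 mice high in the hepatocyte sum and with any 1 of 5 mice left out (GPx4+/- CNTL replicate 1, 4 or 5, or GPx4+/- HFHS replicate 2 or 5; adjusted p up to 0.110). Over both genotypes 1 of 13 was lower (all genes 3.65%), Il10rb, the shared chain of the interferon-lambda and interleukin-10 receptors, whose mean was 87.2 ± 4.73 and 86.6 ± 6.64 on CNTL and 75.0 ± 8.54 and 76.9 ± 5.48 on HFHS in WT and GPx4+/- (SD, n = 5 each; log2 fold change -0.20, adjusted p = 0.0223 from limma). The median over this list was 0.0061. Cardiomyocyte markers were higher on HFHS over both genotypes for 2 of 6 genes (median -0.087, 1 called lower, all genes 3.65%). Their sum had a median of 42338.1 scaled TPM in WT CNTL and 36654.6 in WT HFHS, and of 39232 in GPx4+/- CNTL and 38459.8 in GPx4+/- HFHS. The part of these cells in the Il10rb result was not tested.

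Among 68 other interferon-stimulated genes, 55 were tested. Over both genotypes 3 rose on HFHS and 2 fell by limma, against 4.68% of all genes higher and 3.65% lower, and 19 of 55 had an unadjusted p under 0.05 (all genes 24.5%). The median log2 fold change was 0.07, with 43 of 55 higher (all genes 49.2%). Ifitm2 and Ifitm3, membrane proteins that block virus entry, rose by 0.22 (adjusted p = 0.0310) and 0.23 (adjusted p = 0.0267). Ifitm3 was between 70.8 and 109.5 scaled TPM in the 10 CNTL mice and between 96.2 and 137.3 in the 10 HFHS mice, which overlap. Phf11d, a PHD-finger protein, rose by 0.24 (adjusted p = 0.0299 from limma). These 3 calls were lost with TPM as deposited, without a filter and without the 6 mice high in the hepatocyte sum. The Phf11d call was also lost with the replicate block and without the 6 mice set apart by the gap, and the Ifitm2 call with quantile normalization. Fibroblast markers were higher on HFHS over both genotypes for 5 of 5 genes (median 0.29, 2 called, Pdgfra and Lum), smooth muscle and pericyte markers for 5 of 5 (0.51, 0 called) and endothelial markers for 5 of 5 (0.089, 0 called). The fibroblast sum was between 242.7 and 466.0 scaled TPM in WT CNTL, 252.1 and 380.4 in GPx4+/- CNTL, 299.6 and 524.1 in WT HFHS and 279.3 and 450.6 in GPx4+/- HFHS. WT HFHS replicate 4, the highest of the 25 mice for Ifitm2 (103.5) and Ifitm3 (137.3), was also the highest for fibroblast markers (524.1) and smooth muscle and pericyte markers (659.5). In WT CNTL replicate 3 the fibroblast sum was 466.0, with Ifitm2 at 80.6 and Ifitm3 at 93.3. Phf11d was at most 6.79 in WT HFHS, against 7.25 in the highest WT HFHS + Carnosine mouse. The part of these cells in the 3 rises was not tested. Of the 55 genes, 44 were higher on HFHS in WT (median 0.12, all genes 50.2% higher) and 34 in GPx4+/- (0.04, 49.6%). The difference of the diet effect between genotypes had a median of -0.10 over this list (15 of 55 higher, all genes 48.8%). By limma 0 rose and 1 fell in WT alone (all genes 0.66% higher and 0.526% lower), and in GPx4+/- 0 rose and 2 fell (2.18% higher and 1.16% lower). The scale sets this split over all genes, since over both genotypes 561 were called higher and 437 lower with scaling and 145 higher and 573 lower with TPM as deposited, and in GPx4+/- 261 and 139 against 37 and 388. Of 26 tested genes led by interferon gamma, 0 were called in each of the 8 comparisons, and 3 of 26 had an unadjusted p under 0.05 for diet over both genotypes (all genes 24.5%).

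Ifit1bl1 and Ifit1bl2, relatives of Ifit1 that lie between Ifit3 and Ifit1 on chromosome 19, fell on HFHS. Ifit1bl2 was 1.28, 1.64, 1.42, 1.54 and 1.67 scaled TPM in WT CNTL and 1.73, 1.29, 1.20, 1.51 and 1.21 in GPx4+/- CNTL. On HFHS it was 0.907, 1.02, 0.739, 0.730 and 0.879 in WT and 0.668, 1.06, 1.05, 0.969 and 0.754 in GPx4+/-. The group means were 1.51 in WT CNTL and 1.39 in GPx4+/- CNTL, against 0.856 in WT HFHS and 0.902 in GPx4+/- HFHS. Only the CNTL mice thus carried Ifit1bl2 past the filter, an average of 1 scaled TPM. Its level was above that of 1.69% of the genes tested. Every HFHS mouse of these 4 groups was below every CNTL mouse, as in 0.484% of all genes, and with both genotypes pooled the log2 fold change was -0.50 (standard error 0.0801, limma adjusted p = 0.00068). It was -0.57 in WT (adjusted p = 0.0187) and -0.43 in GPx4+/- (adjusted p = 0.0435). Ifit1bl1 fell by 0.47 over both genotypes (limma adjusted p = 0.0021, standard error 0.0859) and by 0.45 in GPx4+/- (adjusted p = 0.0471), and its change of -0.49 in WT did not pass (adjusted p = 0.0564). Its mean was 2.57 ± 0.391 and 2.73 ± 0.526 on CNTL and 1.68 ± 0.0596 and 1.86 ± 0.355 on HFHS in WT and GPx4+/- (SD, n = 5 each). In WT HFHS + Carnosine mice, which also ate the HFHS diet, the levels were 0.934 ± 0.120 for Ifit1bl2 and 1.57 ± 0.172 for Ifit1bl1 (SD, n = 5 each). Both calls over both genotypes held under every alternative in which these genes were tested in that comparison (adjusted p up to 0.0356), while the calls within 1 genotype did not (adjusted p up to 0.256).

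Ifit1 itself, which shares its ISRE-bearing promoter stretch with Ifit1bl2, did not pass in any of the 8 comparisons. The log2 level of Ifit1bl2 relative to Ifit1 in each mouse is given without a test, since it was chosen after the values were seen. In WT it was -0.66 ± 0.229 on CNTL and -1.17 ± 0.192 on HFHS (SD, n = 5 each), with overlap, a difference of -0.51. In GPx4+/- it was -0.57 ± 0.184 on CNTL and -1.23 ± 0.292 on HFHS (SD, n = 5 each), without overlap, a difference of -0.66. With carnosine the difference was 0.10. Ifit1bl2 correlated with the members' mean by r = 0.293 and Ifit1bl1 by -0.096, at ranks 1106 and 8087 of 11967 genes, while Ifit3b, which lies in the same cluster, was at rank 12 (0.694).

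**Figure D5:**
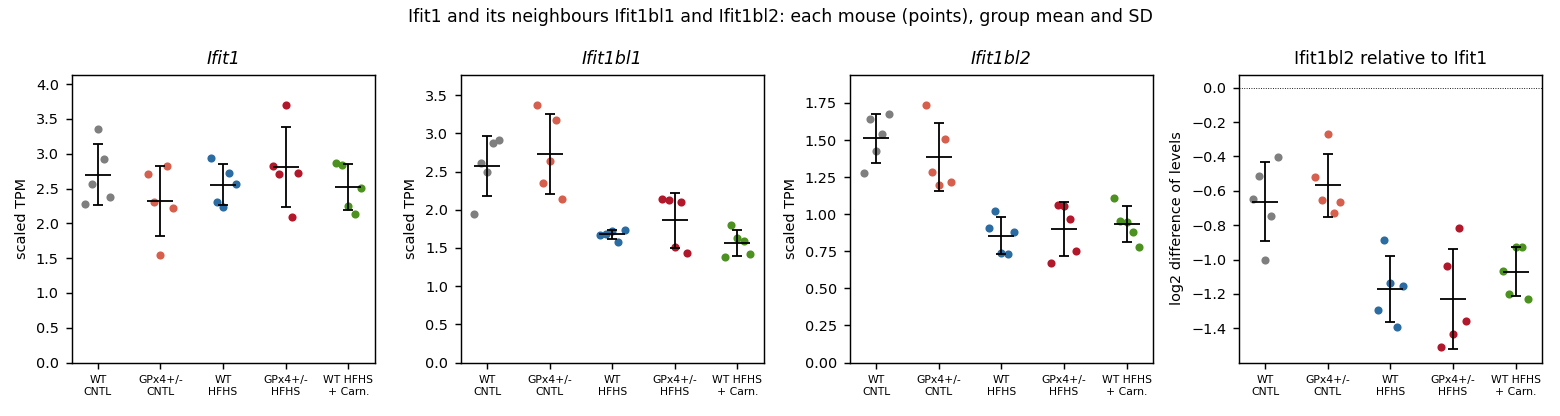
Scaled TPM (from 0) of Ifit1, Ifit1bl1 and Ifit1bl2 and, at the right, the log2 level of Ifit1bl2 minus that of Ifit1, by group; points are mice, the short bar is the group mean and the whiskers are the SD (n = 5). Ifit1bl2 is at most 1.06 in the HFHS groups without carnosine and at least 1.20 in the CNTL groups, and Ifit1 overlaps between all groups.

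Reads can pass between these relatives. The Ifit1bl1 and Ifit1bl2 transcripts are 89.4% identical over 2208 bases, and Ifit1 is 84.5% identical to Ifit1bl2 over 801. Ifit3 and Ifit3b are 97.8% identical over 1700 bases, so their split is uncertain. With Ifit3 summed with Ifit3b, and Ifit1 with Ifit1bl1 and Ifit1bl2, 1 of 8 members was called over both genotypes, the Ifit1 sum (lower, adjusted p = 0.0175 from limma), and Ifit1bl1 and Ifit1bl2 make up part of that sum. Isg15 has a relative, AC151275.1, 95.2% identical over 482 bases, which reached at most 0.302 scaled TPM.

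Among genes that restrain interferon signalling, 12 of 15 were tested and 2 rose on HFHS over both genotypes (all genes 4.68%). Ptpn6 (SHP-1), a phosphatase of blood cells that acts on Jak kinases, was 1.93, 2.06, 2.20, 1.74 and 1.44 in WT CNTL and 2.54, 2.99, 2.80, 2.34 and 2.88 in WT HFHS. In GPx4+/- it was 1.99, 1.95, 1.61, 1.57 and 1.85 on CNTL and 2.58, 2.77, 2.33, 2.31 and 2.82 on HFHS. All HFHS mice of these 4 groups were above all CNTL mice, as in 0.484% of all genes, with a log2 fold change over both genotypes of 0.43 (limma adjusted p = 0.00061, standard error 0.0677), 0.44 in WT (adjusted p = 0.0295) and 0.42 in GPx4+/- (adjusted p = 0.0204), and the call was lost in 12 of 21 alternatives in WT (adjusted p up to 0.112) and in 6 of 21 in GPx4+/- (up to 0.107). Among these were fits without any 1 of WT CNTL replicates 1, 2, 4 and 5 and WT HFHS replicates 2, 3 and 5, and of GPx4+/- CNTL replicates 3 and 4 and GPx4+/- HFHS replicate 5. In WT HFHS + Carnosine mice Ptpn6 was 3.05, 2.38, 2.22, 1.94 and 3.45, and replicate 4 lay within the CNTL range. Macrophage marker genes were higher on HFHS for 6 of 6 tested genes over both genotypes (median 0.15), with 0 called. Their sum was between 73.9 and 117.6 scaled TPM in WT CNTL, 88.7 and 129.6 in GPx4+/- CNTL, 94.4 and 149.5 in WT HFHS and 103.4 and 134.3 in GPx4+/- HFHS, with no marker at 0 throughout a group. The B cell list, of which 1 of 5 genes passed the filter on low values, summed to between 5.19 and 6.54 in WT CNTL and 6.78 and 8.65 in WT HFHS, without overlap, and to between 5.15 and 8.36 in GPx4+/- CNTL and 6.03 and 8.98 in GPx4+/- HFHS, with overlap. With carnosine its highest mice were replicates 1 (8.43) and 5 (8.66) and its lowest was replicate 4 (6.36), as for Ptpn6. In the same mice the macrophage sum was also lowest in replicate 4 (100.2) but highest in replicates 2 (132.8) and 3 (130.1). It was 127.7 in replicate 1 and 102.5 in replicate 5, the highest mouse for Ptpn6. The part of these cells in the Ptpn6 result was not tested. Ptpn11 (SHP-2), its widely expressed relative, rose by 0.25 over both genotypes (adjusted p = 0.0227 from limma) and by 0.34 in GPx4+/- (adjusted p = 0.0473). Both calls were lost without a filter, with TPM as deposited and without the 6 mice high in the hepatocyte sum. The call in GPx4+/- was lost in 15 of 22 alternatives (adjusted p up to 0.235), among them a fit without any 1 of the 5 GPx4+/- HFHS mice or of GPx4+/- CNTL replicates 3 and 4. Among 14 tested nucleic acid sensors and adaptors, 1 rose over both genotypes (all genes 4.68%), Irf5, a transcription factor of myeloid cells, by 0.44 (adjusted p = 0.0247 from limma), and its mice overlapped between diets in both genotypes. This call was lost without a filter, with TPM as deposited and without either set of 6 mice. Genotype and carnosine gave 0 calls in these lists by limma (all genes 0.0501% to 0.0585% and 0%), and at an unadjusted p under 0.05 the highest count per list was 4 of 55 other interferon-stimulated genes, between genotypes on CNTL (all genes 6.28%), and the highest share 2 of 12 genes that restrain signalling, between genotypes on HFHS (4.57%) and over both diets (3.92%).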

How the data were processed

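Per the labels, RNA was extracted from left ventricular tissue of hearts and sequenced as stranded, polyA-selected libraries. The authors deposited TPM per transcript for 119215 transcripts, per the submitters' processing notes with kallisto 0.43.1 and sleuth 0.30.0 on GRCm38. TPM keeps no read depth, so no counting error can be given for a value. The authors' own tests used DESeq2 on gene counts, which were not used here. Columns were matched to mice by library name, 116772 transcripts were matched to GENCODE M21 (2443 were not), and TPM were summed by symbol. Each library was divided by its median-ratio factor to give scaled TPM. Genes whose average reached 1 scaled TPM were fitted with limma 3.58.1 (R 4.3.3) on log2(scaled TPM + 0.5), with Benjamini-Hochberg adjustment over 11975 genes and a threshold of 0.05. Fold changes on this scale understate those of low genes. The 20 mice without carnosine entered 1 fit of 4 groups, and 10 WT HFHS mice the carnosine fit, so comparisons share groups of mice. Single members were compared between 2 groups by a two-sided exact permutation test, over 40 tests, with no adjustment. All scripts for these tests were tested on simulated data. Transcript identity came from blastn 2.17.0, and promoter windows from RefSeq.

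Genes named are the 8 members, Gpx4, listed interferon-pathway genes with an adjusted p under 0.05 in any comparison, and the 10 genes most like the members. The members and lists were chosen with earlier results of these data known. The promoter motifs, the comparison of Ifit1bl2 with Ifit1, the levels of receptors and ligands, Ifit3b, AC151275.1 and the fits without 6 mice were named or chosen after values were seen. Alternatives were another pseudocount, other filters and scalings, a replicate block, array weights, other mice in the fit, near-identical genes summed, and each mouse left out.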

Additional observations from a re-analysis of the deposited data

Results flagged for a closer look

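Among 100 groups of 5 mice (20 genes in 5 groups), 4 held a mouse far from the other 4, where the gap to its neighbour took more than 0.71 of the group's range. For independent, normally distributed values the rule would flag about 1 in 20, which is 5 of 100. The genes here share mice and some were named because they were called, so the 4 cannot be judged against that number. Irf7 in GPx4+/- CNTL replicate 4 was 15.3 scaled TPM against 9.65 in the next mouse (gap 0.819 of the range), and that mouse was the highest of its group for 7 of 8 members. Rtp4 in WT HFHS + Carnosine replicate 4 was 4.70 against 5.71 (0.731). Ifit3b in GPx4+/- HFHS replicate 3 was 4.00 against 2.82 (0.890), in the mouse that was highest of its group for 8 of 8 members. Ifitm3 in WT CNTL replicate 5 was 70.8 against 90.0 (0.801).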

How the results depend on the processing

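Across 12 other settings and 25 fits that left out 1 mouse, 0 members were called among those tested in each comparison run, with 1 exception. With a mean of at least 5 scaled TPM, 7 members were tested, and the fit of only the groups compared gave 4 comparisons. The exception was that with Ifit1 summed with Ifit1bl1 and Ifit1bl2, and Ifit3 with Ifit3b, 1 member was called for diet over both genotypes (Ifit1 sum, adjusted p = 0.0175 from limma). Apart from that setting the smallest adjusted p of a member was 0.0587. Of 1608 member values, 122 changed sign, 35 of them outside the fits that left out a mouse. The largest main value to turn was 0.23, Ifit1 for diet in GPx4+/-, which was -0.18 with near-identical genes summed. Ifit1 for diet in WT ranged from -0.11 to 0.0072 with 1 mouse left out and turned without WT CNTL replicate 3. Bst2 for diet in GPx4+/- was -0.068 with TPM as deposited, a scale that moved the values of all genes down in this comparison. Bst2 was -0.049 there without the 6 mice high in the hepatocyte sum, and ranged from -0.069 to 0.13 with 1 mouse left out. Over both genotypes it ranged from -0.054 to 0.046 with 1 mouse left out, and was 0.0056 without the 6 mice set apart in atrial or hepatocyte genes by the gap. Xaf1 between genotypes on HFHS was 0.027 with array weights and ranged from -0.085 to 0.071 with 1 mouse left out. Ifit1 between genotypes over both diets was 0.013 with array weights, 0.019 with near-identical genes summed, 0.0065 without the 6 mice set apart by the gap and between -0.090 and 0.011 with 1 mouse left out. The cause of these changes of sign was not tested.

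Of 40 exact permutation tests, 1 was under 0.05, 2 with near-identical genes summed and between 0 and 3 with 1 mouse left out. Of the 10 genes most like the members, 4 stayed without WT CNTL, 5 without GPx4+/- CNTL and 4 without GPx4+/- HFHS. Calls over both genotypes for Ifit1bl1, Ifit1bl2, Il10rb and Ptpn6 held in all settings that tested them there (the summed setting leaves out Ifit1bl1 and Ifit1bl2). Those for Ifitm3 and Irf5 were lost without a filter, with TPM as deposited and without either set of 6 mice, Ifitm3 also without GPx4+/- HFHS replicate 5, Ptpn11 was lost without a filter, with TPM as deposited and without the 6 mice high in the hepatocyte sum, and Ifitm2 and Phf11d were each lost in 12 of 31 (adjusted p up to 0.247 and 0.150).

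The labels do not say whether mice with the same replicate number were paired. Over 50 pairs of same-numbered mice the correlation of deviations lay between -0.338 and 0.234, and 7 were highest with their own number. These values cannot decide whether the numbers carry a pairing, since a shared litter or day need not move most genes. With the replicate block 0 of 8 members were called in each comparison, and genes called for diet in WT numbered 68 in place of 142. Without a filter that count was 45, with TPM as deposited 38, with array weights 407, with only the groups compared 75, without the 6 mice high in the hepatocyte sum 67 and with 1 mouse left out between 36 and 203. For diet in GPx4+/- it was 400, and 237 without a filter, 124 with only the groups compared, 82 without those 6 mice and between 193 and 483 with 1 mouse left out. Over both genotypes it was 998, and 362 without those 6 mice.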
